A study of Homo sapiens with 24 samples.

Results

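The comparison described here set the ATAC-seq libraries of HEK293 cells that overexpress lamin B2 against those of cells that overexpress enhanced green fluorescent protein (GFP), the control. Its members are 6 of the 24 libraries of the series, 3 per group, chosen by their labels and by the columns of the ATAC count table that match them. The table counts reads in windows on annotated non-coding features, and 163786 of 175946 feature windows held enough counts to be tested. Beside each feature it counts flanks of 500 bp, 5 kb and 50 kb on both sides, and the 2 sides were summed here.

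HEK293 is an established human embryonic kidney cell line, and every library carries the genotype label Wild Type. The LMNB2 group is labelled LaminB2 Overexpression and the GFP group eGFP Overexpression, and all ATAC libraries, including 3 each of lamin A (LMNA) and lamin B1 (LMNB1) overexpression, carry the batch number 2. The vector, its promoter, the share of cells that carried it and the time of collection are not given in the sources used here. Nothing in the labels says that the 3 libraries of a group came from separate cultures, so p-values measure the spread between these libraries, which may be technical. The windows lie on non-coding features, so the protein-coding genes that mark the cell line could not be checked.

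Lamins are intermediate filament proteins that form a meshwork under the inner nuclear membrane. The B-type lamins, B1 and B2, stay attached to that membrane through a lipid anchor, while lamin A also occurs in the nuclear interior. Chromatin that touches the lamina is mostly gene-poor and silent, whereas the short genes of RNA polymerase III (Pol III), such as those of transfer RNA (tRNA), lie mostly in open chromatin. In ATAC-seq a transposase cuts and tags accessible DNA, so counts in a window measure accessibility together with the number of DNA copies of its sequence.

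The labels were checked against the overexpressed genes before the comparison. Window counts came to between 156043245 and 290158229 per library, more than the reads, since overlapping features count the same reads. Lamin B1 replicate 3 stood apart at LMNB2: the window on NONHSAG024437.2, which spans most of the gene, held 116 CPM (a count relative to the library size, scaled by trimmed mean of M-values) there, against 19.1 and 18.1 in the other lamin B1 libraries. All 12 ATAC libraries set the estimate of spread, so the calls on feature windows at LMNB2 are also given without that library. Flanks and window-to-flank differences were not refitted without it.

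The microRNA precursors printed here lie at LMNB2 and in nuclear copies of mitochondrial DNA, regions whose flanks rose or fell in lamin B2. MIR7108 lies within LMNB2 on the minus strand of chromosome 19 from 2434914 to 2435000. MIR4485 lies on chromosome 11 from 10508270 to 10508326 and MIR12136 on chromosome 1 from 632615 to 632685, both on the minus strand and both in stretches of the nuclear genome that resemble mitochondrial DNA. Precursors and mature forms are from RefSeq (GRCh38.p14), written 5′ to 3′. In the precursors capitals mark the first and last 2 bases. In the mature forms they mark the seed, bases 2 to 8, with which a microRNA pairs with its targets. No seed is shared between the 4 mature forms.
MIR7108 precursor: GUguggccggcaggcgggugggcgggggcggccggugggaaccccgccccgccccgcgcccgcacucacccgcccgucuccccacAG
hsa-miR-7108-5p: gUGUGGCCggcaggcgggugg
hsa-miR-7108-3p: aCCCGCCCgucuccccacag
MIR4485 precursor: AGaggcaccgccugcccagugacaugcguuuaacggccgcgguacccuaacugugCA
hsa-miR-4485-3p: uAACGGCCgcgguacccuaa
MIR12136 precursor: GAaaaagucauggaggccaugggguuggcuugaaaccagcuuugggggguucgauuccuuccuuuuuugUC
hsa-miR-12136: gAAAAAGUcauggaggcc
The MIR7108 precursor is 83.9% G and C. It opens with GU and closes with AG, the bases found at the ends of most introns, and exon positions were not used here.

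Across the feature windows, 4 differed between lamin B2 and GFP at an adjusted p under 0.05 (quasi-likelihood test of edgeR, Benjamini-Hochberg adjustment), which is 0.00244% of those tested. There were 2 in each direction (0.00122%). Such windows are said below to have risen or fallen. Both that rose cover LMNB2, and both that fell lie on the long non-coding RNA (lncRNA) interval lnc-SLC12A7-1 of chromosome 5. At an unadjusted p under 0.05 there were 9368 windows (5.72%), and in 10.3% of windows the lamin B2 and GFP libraries did not overlap. The median log2 fold change was −0.003, and the median standard error 0.15. DESeq2 called 116 windows (18 higher, 98 lower), a fit of the 6 compared libraries alone 67 (8 and 59) and scaling by total counts 99 (13 and 86), and all 4 windows were among the calls each time. The count was 9 without GFP replicate 3, 7 without lamin A replicate 1, 10 without lamin B1 replicate 3 and 13 without lamin B2 replicate 3, again with all 4 included.

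At LMNB2, which RefSeq places on the minus strand of chromosome 19 from 2428166 to 2456959, counts rose steeply over part of the gene. The window on lnc-TIMM13-1, which runs from 2414108 to 2612012 and contains the gene, held 104, 86.1 and 79.6 CPM in GFP replicates 1 to 3 and 43107, 36030 and 45471 CPM in lamin B2. The groups were far apart, with a log2 fold change of 8.85 ± 0.29 (standard error) and, in edgeR's quasi-likelihood test, an adjusted p of 0.000765. The window on lnc-GADD45B-1, which runs from 2414093 to 2654421, shared most of these counts and rose by 8.71 ± 0.27 (adjusted p of 0.00058).

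The smaller windows inside LMNB2 had higher fold changes but did not pass the test. The MIR7108 precursor window, from 2434764 to 2435150, held 5.58, 3.50 and 2.45 CPM in GFP and 7495, 6255 and 7966 CPM in lamin B2. No lamin B2 library was near a GFP library, yet its log2 fold change of 10.88 ± 1.00 had an adjusted p of 0.47 in edgeR's quasi-likelihood test. The other groups were uneven at this window, with 20.01 CPM in lamin B1 replicate 3 and 0.125 CPM in lamin A replicate 2. Without lamin B1 replicate 3, 10 windows passed in place of 4, and 7 of them were higher in lamin B2. The MIR7108 precursor window then had an adjusted p of 0.0497 and NONHSAG024437.2 one of 0.00576 in the same test, at log2 fold changes of 10.88 and 10.46.

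The flanks of MIR7108 passed. Its 500 bp flanks held 28.9, 19.8 and 15.2 CPM in GFP and 42967, 35440 and 45056 CPM in lamin B2. They rose by 10.91 ± 0.88 on the log2 scale, and the adjusted p was 0.0416 in edgeR's quasi-likelihood test on all 500 bp flanks. Its 5 kb flanks rose by 10.64 ± 0.82 (adjusted p of 0.028). CPM of flanks are relative to the total over flanks of that size.

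The 500 bp flanks of the features in and around LMNB2 showed where along the gene the counts lay. No test was made on single flanks. The flank centred 22.8 kb after the start of transcription held a mean of 41154 CPM in lamin B2 against 21.1 CPM in GFP, a 1952-fold difference. At 24.4 kb the values were 5788 and 3.89 CPM, 1487-fold apart, and at 26.2 kb 71.9 and 0.495 CPM, 145-fold apart.

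Neighbouring flanks of the same gene did not show this. At 21.3 kb after the start the means were 0.236 CPM in lamin B2 and 0.220 CPM in GFP, and at 28.2 kb 1.26 and 1.23 CPM. The flank at 19.1 kb held 0.265 CPM in lamin B2 and 0.370 CPM in GFP, and each lamin B2 library lay below each GFP library. Upstream of the start, at 0.74, 1.23, 1.38 and 5.98 kb, the log2 ratios of the means were −0.11, −0.15, −0.11 and 0.04. A further flank 3.29 kb upstream held few counts, at 0.166, 0.290 and 0.592 CPM in GFP and 0.171, 0.177 and 0.151 CPM in lamin B2. The groups overlapped there, and the log2 ratio of the means was −1.07. Among the 500 bp flanks measured, the rise within LMNB2 was therefore confined to those between 22.7 and 26.2 kb. These flanks cover only parts of the gene. The 5 kb flanks of LINC01775, which reach into the start of LMNB2, also rose and are given below.

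**Figure D1:**
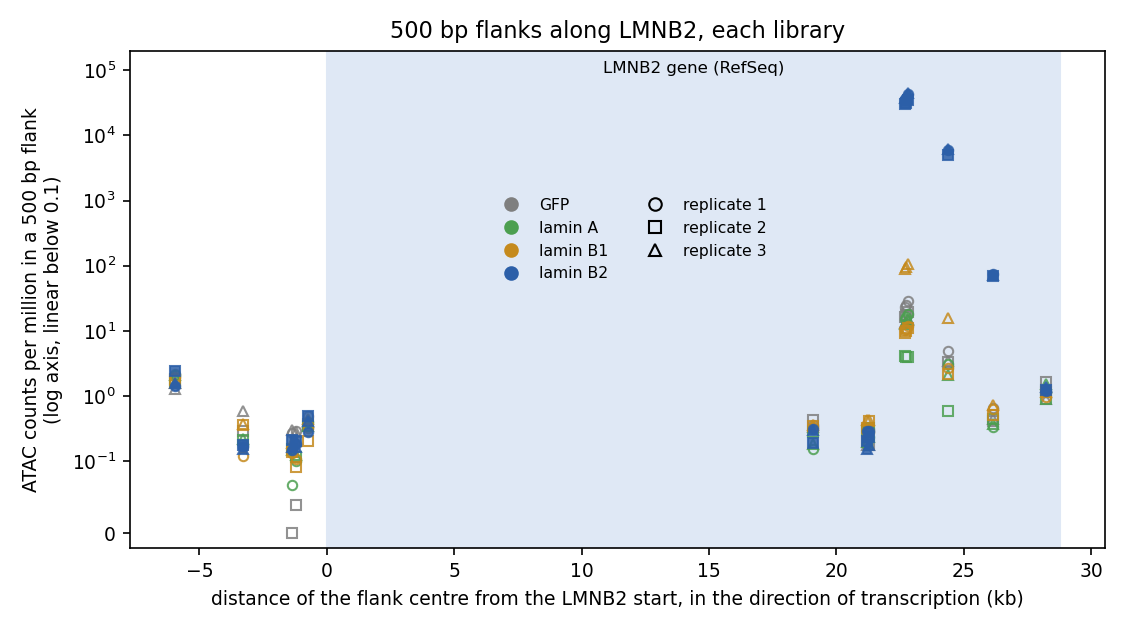
ATAC signal in CPM in single 500 bp flanks (log axis, linear below 0.1) against the distance of the flank from the start of LMNB2 in kb, with a point per library and the gene shaded. The filled lamin B2 points reach a mean of 41154 CPM at 22.8 kb and lie among the other groups at 21.3 and 28.2 kb.

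The windows over the other lamin genes did not pass the test in the lamin B2 libraries. The LMNB1-DT window from 126777052 to 126778380 of chromosome 5 held 12.5, 8.39 and 11.1 CPM in GFP and 14.2, 15.1 and 24.1 CPM in lamin B2. The groups did not overlap, but the log2 fold change of 0.74 ± 0.37 did not pass edgeR's quasi-likelihood test (adjusted p of 0.896). In the lamin B1 libraries the same window held 9828, 12072 and 8697 CPM. The lnc-SEMA4A-1 window over LMNA held 13.2, 11.3 and 8.87 CPM in GFP and 7.34, 5.50 and 7.36 CPM in lamin B2, a log2 fold change of −0.72 ± 0.31 (adjusted p of 0.875).

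The same intervals were also measured in the small RNA libraries of the series, which carry the batch number 1 and share no library with the ATAC comparison. Of the 57 named features that could be tested there, 10 passed, where 2.66% of all small RNA features did (1.91% higher). All 8 intervals over LMNB2 were among them: the MIR7108 precursor interval rose by 9.34 and NONHSAG024437.2 by 9.77 on the log2 scale. NONHSAG024437.2 held 0.421, 0.426 and 0.355 CPM in GFP and 336, 378 and 365 CPM in lamin B2. The other 2 were LMNB1-DT intervals, 1 of which held 0.060, 0.110 and 0.073 CPM in GFP and 0.398, 0.352 and 0.398 CPM in lamin B2, a log2 fold change of 2.07 ± 0.25. Counts in these intervals cannot be told apart from those of the lamin messenger RNA, because the use of strand in counting is not given in the sources used here.

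Outside the lamin genes, ATAC counts fell at lnc-SLC12A7-1, in the space between NKD2, a gene of Wnt signalling, and SLC12A7, which encodes a potassium chloride cotransporter. The window from 1040593 to 1048462 held 2.52, 2.05 and 2.45 CPM in GFP and 0.738, 0.993 and 1.29 CPM in lamin B2. Each lamin B2 library lay below each GFP library, and the log2 fold change was −1.22 ± 0.14 (adjusted p of 0.000162 in edgeR's quasi-likelihood test). The lamin B1 libraries were also low, at 1.13, 1.19 and 1.09 CPM, and the lamin A libraries were near GFP at 2.59, 2.37 and 2.01 CPM. In bulk libraries, fewer cells with an open site, a less open site in each cell and fewer DNA copies of the site cannot be told apart.

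NKD2 ends at 1038943 and SLC12A7 starts at 1050384. Between them lie 23 windows shorter than 4 kb, from 1041622 to 1048238, all inside the called interval that drew attention to the region. All 23 were lower in lamin B2, as were 50.9% of all windows, and 19 were lower with groups that did not overlap, as were 4.72% of all windows. None passed alone, with log2 fold changes from −1.55 to −0.93 and a median of −1.34. These windows overlap and share reads. Their median level per library was 0.266 to 0.421 CPM per kb in GFP and 0.079 to 0.218 CPM per kb in lamin B2, so the groups did not overlap.

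The flanks bounded the region. The 500 bp flanks of 13 features there fell, by 1.00 to 1.73 on the log2 scale, and the 5 kb flanks of 23 features fell by 0.50 to 0.82, where 0.053% and 0.0525% of all sets of those sizes fell. The most reduced 500 bp flanks, those of lnc-NKD2-3, held 1.21, 0.792 and 1.97 CPM in GFP and 0.256, 0.461 and 0.424 CPM in lamin B2. No 50 kb flank passed there. The 5 kb flanks of the called lnc-SLC12A7-1 window itself, which lie over NKD2 and SLC12A7, held 1.90, 2.31 and 2.20 CPM in GFP and 2.28, 1.71 and 2.00 CPM in lamin B2, and the groups overlapped.

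**Figure D2:**
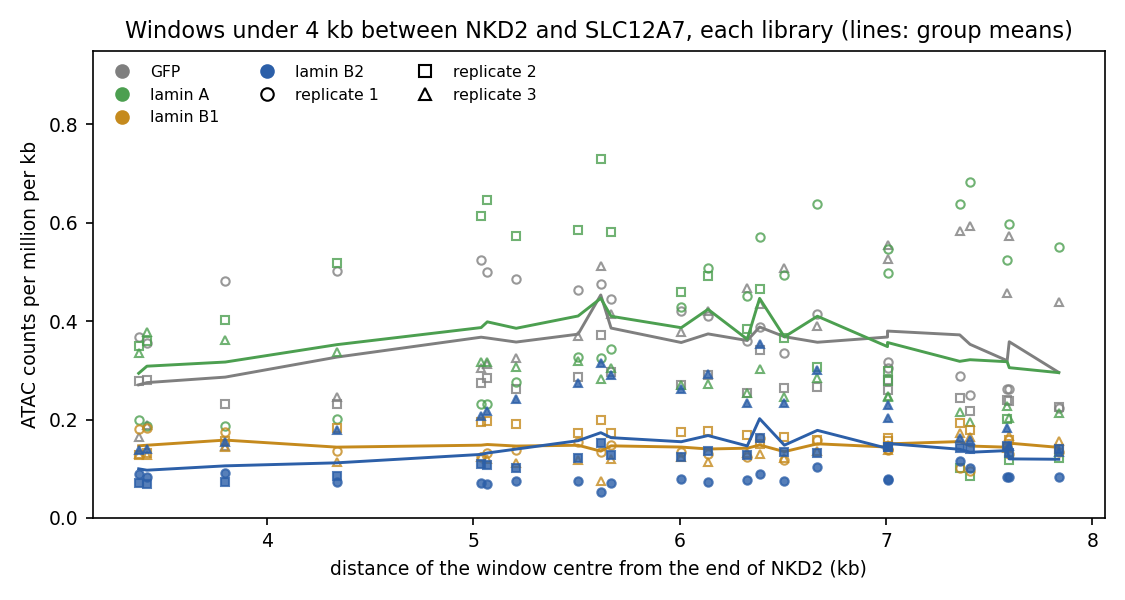
ATAC signal in CPM per kb of window length, for windows under 4 kb between NKD2 and SLC12A7, against the distance of the window from the end of NKD2 in kb, with a point per library and lines for the group means. The lamin B2 and lamin B1 lines run below the GFP and lamin A lines, and all 23 windows were lower in lamin B2 than in GFP.

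Mitochondrial DNA made up less of the lamin B2 libraries. ATAC libraries hold reads from mitochondrial DNA because it carries no nucleosomes. Its share of window counts was 39.9%, 47.5% and 47.0% in GFP and 25.2%, 30.7% and 24.5% in lamin B2, means of 44.8 ± 4.24% and 26.8 ± 3.43% (SD, n = 3). The difference of −18.0 percentage points had an exact two-sided permutation p of 0.1, the smallest that 3 libraries against 3 can give. With the flanks added to the windows the difference was −11.5 points. The lamin B1 libraries were also below every GFP library, at 33.9%, 32.8% and 34.1%. Each lamin B2 library held more window counts than each GFP library, at least 245216372 against at most 212225646. These totals include overlapping windows over LMNB2, which count the same reads. In lamin B2, lnc-GADD45B-1, lnc-TIMM13-1 and NONHSAG024437.2 held means of 41546, 41536 and 41456 CPM, against 99.5, 90.0 and 29.4 CPM in GFP. Totals without such windows were not compared. The LMNB2 counts also enter the denominator of the mitochondrial share. The parts of depth and of the LMNB2 windows in the difference of the share were not tested.

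Every mitochondrial window was low together. All 46 had an unadjusted p under 0.05 and groups that did not overlap, where 2.83% and 4.72% of all windows were lower by these rules, and none passed after adjustment. Their log2 fold changes ran from −0.95 to −0.84 with a median of −0.86. They are not independent, since each reads the share of the same molecule. MT-RNR1, the small mitochondrial ribosomal RNA gene, held 6607, 8927 and 8561 CPM in GFP and 4120, 5137 and 4044 CPM in lamin B2, a log2 fold change of −0.86 ± 0.14 (adjusted p of 0.715 in edgeR's quasi-likelihood test). The flanks of mitochondrial features passed, 37 sets of 500 bp and 14 of 5 kb, with 0.0616% and 0.0668% of all sets of those sizes called in either direction.

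Nuclear copies of mitochondrial DNA with high counts were low in the same libraries, and their part in other calls was not tested. These copies are old insertions of mitochondrial sequence, and how reads that match both were assigned is not given in the sources used here. The list was drawn up after values had been seen. Of its 372 tested windows 237 were lower and 135 higher. The 26 with at least 100 CPM per kb were all lower with a median log2 fold change of −0.81, whereas the median of the other 346 was −0.17 (−0.06 with total counts). Library medians of the 26, relative to the GFP mean, were −0.25, 0.17 and 0.09 in GFP and −0.88, −0.58 and −0.94 in lamin B2. For the other 346 they were −0.14, 0.09 and 0.06 in GFP and −0.15, −0.03 and −0.17 in lamin B2, and the groups overlapped.

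**Figure D3:**
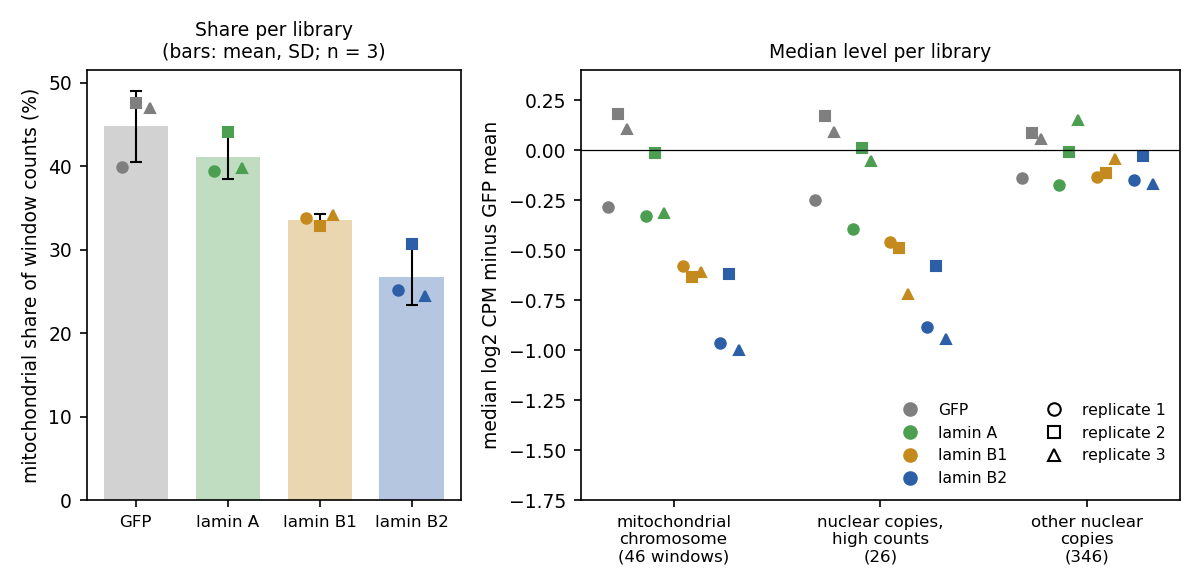
Left, the mitochondrial share of window counts in percent, with bars for the mean, error bars for the SD and a point per library (n = 3). Right, the median log2 CPM minus the GFP mean of the 46 mitochondrial windows, the 26 nuclear copies with high counts and the other 346 copies, in each library: the lamin B2 libraries are the lowest in the first 2 sets except that replicate 2 lies among lamin B1.

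The microRNAs in such copies followed the same course. The MIR12136 precursor window held 164, 241 and 217 CPM in GFP and 107, 141 and 95.3 CPM in lamin B2, and its groups did not overlap. Its log2 fold change of −0.86 ± 0.21 had an adjusted p of 0.827 in edgeR's quasi-likelihood test, while its 5 kb flanks fell by 0.83 ± 0.15 (adjusted p of 0.000116). MIR4485, inside MTRNR2L8, a humanin-like pseudogene, held 2.03, 2.60 and 2.45 CPM in GFP and 1.17, 1.23 and 1.24 CPM in lamin B2 (−0.96 ± 0.26, adjusted p of 0.827). Its 5 kb flanks held 227, 288 and 266 CPM in GFP and 151, 170 and 140 CPM in lamin B2, and fell by 0.76 ± 0.12 (adjusted p of 4.81e-06). The 500 bp flanks of MIR4485 did not pass the same test (−0.70 ± 0.25, adjusted p of 0.818). Those of the MIR12136 precursor did (−0.76 ± 0.12, adjusted p of 8.3e-06).

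Flanks gave more calls than feature windows. Of the 500 bp sets 100 passed, 14 higher and 86 lower. Of the 5 kb sets 117 passed, 25 higher and 92 lower, and of the 50 kb sets 62 passed (0.0353%), 41 higher and 21 lower. Many sets overlap: the calls fell into 19, 29 and 12 separate regions for 500 bp, 5 kb and 50 kb flanks. LMNB2, mitochondrial DNA and its nuclear copies accounted for 74 of the 100, 68 of the 117 and 33 of the 62 sets. The split depends on scaling: with total counts, 1273 sets of 500 bp were higher and 12 lower, 54201 and 124 of 5 kb, and 39 and 80229 of 50 kb. The 5 kb count was 75 without GFP replicate 2 and 76 and 78 without lamin B2 replicates 3 and 1. The 50 kb count ranged from 36 without GFP replicate 2 to 554 without GFP replicate 3, and was 109 without GFP replicate 1 and 41 without lamin B2 replicate 3.

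The remaining 500 bp calls came from 13 regions, 8 higher and 5 lower. Those that rose most held few counts. The flanks of lnc-SSBP2-5, in the SSBP2 gene of a single-stranded DNA binding protein, held 0.042, 0.039 and 0.035 CPM in GFP and 0.317, 0.319 and 0.328 CPM in lamin B2 (2.38 ± 0.76), at 2 to 27 counts per library. Those of lnc-COL4A1-1 on chromosome 13 held 0, 0.039 and 0.139 CPM in GFP and 0.451, 0.367 and 0.479 CPM in lamin B2 (2.33 ± 0.60). Those of lnc-MARCKS-8, near HDAC2 on chromosome 6, rose by 2.06 ± 0.56. Lamin B2 libraries were higher throughout, but such folds rest on few reads and depend on the prior count of 2. Every lamin B1 library also lay above every GFP library at these flanks, at 0.267, 0.399 and 0.506 CPM for lnc-COL4A1-1. So did every lamin A library for lnc-SSBP2-5 and lnc-MARCKS-8. After lnc-NKD2-3, the flanks of ENSG00000227082.3 beside SRGAP2-AS1 fell most, by 1.56 ± 0.38, from 0.416, 0.869 and 0.714 CPM in GFP to 0.195, 0.260 and 0.164 CPM in lamin B2. Every other lamin library also lay below every GFP library there, at 0.337, 0.340 and 0.305 CPM in lamin A and 0.187, 0.411 and 0.200 CPM in lamin B1.

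The remaining 5 kb calls came from 22 regions, 13 higher and 9 lower. The flanks of lnc-LIN7A-6, in PPFIA2, which encodes a liprin of synapses, rose by 0.97 ± 0.23. They held 0.187, 0.260 and 0.263 CPM in GFP and 0.480, 0.510 and 0.428 CPM in lamin B2. Those of lnc-GIN1-4 rose by 0.93 ± 0.20, and those of lnc-NAXD-5, in the collagen gene COL4A2, by 0.76 ± 0.19. At the kinesin gene KIF5C the flanks of AC105402.3 held 26.7, 33.6 and 30.5 CPM in GFP and 17.5, 19.98 and 16.2 CPM in lamin B2 and fell by 0.76 ± 0.12. AC105402.3 was named after its values were seen. As for the mitochondrial share, GFP replicate 1 was the lowest of its group, and the part of mitochondrial reads in these flanks was not tested.

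At 50 kb the differences were smaller and the libraries tighter, with 7 regions higher and 1 lower beside the LMNB2 and nuclear copy regions. The flanks of AL356275.1 on chromosome 1, near CD34, which encodes a surface marker of blood progenitors, held 2.41, 2.53 and 2.70 CPM in GFP and 3.25, 3.34 and 3.23 CPM in lamin B2. They rose by 0.36 ± 0.05 (adjusted p of 0.000475 in edgeR's quasi-likelihood test). Those of ENSG00000226149.6, near the laminin gene LAMA2, rose by 0.32 ± 0.06, and those of LINC01621 by 0.27 ± 0.05. The flanks of lnc-IRS2-1 on chromosome 13 fell by 0.80 ± 0.11, from 79.8, 108 and 102 CPM in GFP to 51.8, 64.4 and 49.4 CPM in lamin B2. Their GFP replicates kept the order of the mitochondrial share, with replicate 1 lowest, and the part of mitochondrial reads there was not tested.

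Setting each feature window against its own 5 kb flanks, in limma on log2 CPM, gave 10 calls of 164647 (0.00607%), 3 higher and 7 lower. The count was 5 without GFP replicate 2, and 6 without lamin B2 replicate 1 or 3. The 3 higher were lnc-GADD45B-1, lnc-TIMM13-1 and NONHSAG024437.2, by 8.81 to 8.84 relative to their flanks. Of those lower, 3 were intervals of LINC01775 next to LMNB2, at −9.60 to −9.58. There the 5 kb flanks reach into LMNB2 and held 4458, 4268 and 4674 CPM in lamin B2 against 8.92, 6.59 and 5.82 CPM in GFP. The longest LINC01775 window itself held 0.770, 0.880 and 0.852 CPM in GFP and 0.688, 0.699 and 0.688 CPM in lamin B2.

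The other 4 were overlapping intervals of MIR663AHG, the host gene of MIR663A, near the centromere of chromosome 20. In the interval from 26187799 to 26209401 the window exceeded its flanks by 2.70, 2.49 and 2.47 on the log2 scale in GFP and by 1.53, 1.55 and 1.56 in lamin B2. The groups did not overlap, and the difference was −1.01 ± 0.14 (adjusted p of 0.0212 in limma). Neither part passed alone: the window had a log2 fold change of −0.22 ± 0.10 and the flanks 0.78 ± 0.28. The flanks held 24 to 91 counts per library.

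Whether or not they passed the adjusted threshold, 59 non-overlapping windows had an unadjusted p under 0.001, separate groups and at least median counts, 20 higher and 39 lower. They were kept from 146 windows that met these rules before overlaps were removed, where 163786 windows were tested in all. How many would meet the rules by chance was not estimated. By fold change lnc-PAPPA-6 led those higher, with 0.985, 0.786 and 0.883 CPM in GFP and 1.36, 1.39 and 1.248 CPM in lamin B2 (0.59 ± 0.13, adjusted p of 0.474). Then came ENSG00000226149.6 near LAMA2 (0.57), whose 50 kb flanks rose, lnc-FGFR1OP-20 (0.55), NONHSAG041167.2 (0.54) and TTN-AS1, antisense to the titin gene (0.49). Every lamin A and lamin B1 library also lay above every GFP library at lnc-PAPPA-6 and lnc-FGFR1OP-20. For lnc-PAPPA-6 they held 1.07, 1.22 and 0.999 CPM in lamin A and 1.18, 1.13 and 1.16 CPM in lamin B1. At ENSG00000226149.6, NONHSAG041167.2 and TTN-AS1 the lamin A and lamin B1 libraries overlapped GFP. Of the 8 lowest, 1 was the called lnc-SLC12A7-1 window and 4 were mitochondrial. The other 3, tRNA_tRNA_URS00006B2984 (−0.91), LSU_rRNA_bacteria_rRNA_URS0000922B63 (−0.89) and LSU_rRNA_bacteria_rRNA_URS000090395E (−0.86), carry names of tRNA or bacterial-type ribosomal RNA. Their fold changes lay near the median of the mitochondrial windows, −0.86, and the part of mitochondrial reads in them was not tested.

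The series' title concerns Pol III, so its genes were examined as a class. No Pol III window passed the test, and the sign of the small differences depended on the scaling. Under both scalings the Pol III median lay below that of all windows, which was −0.003 with TMM scaling. Of 570 features 553 were tested, 111 higher and 442 lower (79.9%, where 50.9% of all windows were lower), with a median log2 fold change of −0.09. With total counts in place of TMM scaling 317 were higher and 236 lower with a median of 0.02, while the median of all windows moved to 0.11 and 39081 of the 163786 were lower. Among the 553, 61 were lower and 2 higher at an unadjusted p under 0.05, where 2.83% and 2.89% of all windows were. Library medians relative to the GFP mean were 0.09, 0.05 and −0.14 in GFP and −0.09, −0.09 and −0.08 in lamin B2. The groups overlapped, since GFP replicate 3 lay below all lamin B2 libraries. The Pol III median was −0.16 without GFP replicate 3 and −0.04 without GFP replicate 1.

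tRNA genes, which carry their promoter within the gene, set this value. Of 473 tested windows 372 were lower (212 with total counts), with a median of −0.09 (0.02), and the medians of 20 of 23 isotype lists lay below 0 (8 of 23). Aspartate (−0.19, or −0.08 with total counts) and valine (−0.17 with 32 of 34 lower, or −0.06 with 21 lower) were lowest among lists of at least 10, and alanine (−0.04, or 0.07) was nearest to 0. Copies of a tRNA gene are nearly identical, and how shared reads were counted is not given in the sources used here, so single genes are uncertain. tRNA-Val-CAC-5-1 held 0.606, 0.762 and 0.661 CPM in GFP and 0.474, 0.454 and 0.512 CPM in lamin B2 (−0.49 ± 0.16, adjusted p of 0.845 in edgeR's quasi-likelihood test). tRNA-Arg-TCT-5-1, at 1.57 ± 1.03 the highest, held at most 0.060 CPM in any of these libraries. The flanks shared the shift: 393 of 490 sets of 5 kb flanks were lower, where 50.3% of all such sets were, with a median of −0.07 under TMM scaling, and relative to these flanks the tRNA median was −0.02.

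The other Pol III classes were small. All 17 windows of 5S ribosomal RNA, the class with promoter elements bound by TFIIIA, were lower, with a median of −0.10, but with total counts 8 of 17 were lower and the median was 0.01. Their 17 sets of 5 kb flanks were all lower too under TMM scaling, with a median of −0.14. Relative to these flanks 12 of the 17 windows were higher, with a median of 0.05. The 38 SNAR windows, of small RNAs bound by nuclear factor 90, had a median of −0.04 (0.06 with total counts). The 3 windows of 7SL RNA, the core of the signal recognition particle, were higher with a median of 0.03 (0.14 with total counts). The 4 vault RNA windows were lower, with a median of −0.06 (1 lower and 0.05 with total counts). RN7SK, whose RNA restrains the elongation factor P-TEFb, had a log2 fold change of −0.01 ± 0.09, RPPH1, the RNA of RNase P, −0.04 ± 0.08, and RMRP, that of RNase MRP, 0.06 ± 0.09. The directions of these 3 changed under some settings: RN7SK became 0.09 and RPPH1 0.06 with total counts, and RMRP −0.02 without GFP replicate 3. BCYRN1, a neuronal cytoplasmic RNA, had −0.22 ± 0.13 (−0.12 with total counts).

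Y RNA genes, whose RNAs bind the Ro60 protein, had the lowest median of these classes, −0.32 over 4 windows (−0.20 with total counts). RNY3 held 1.18, 1.23 and 1.00 CPM in GFP and 0.788, 0.849 and 0.796 CPM in lamin B2. The groups did not overlap, and the log2 fold change of −0.48 ± 0.14 had an adjusted p of 0.815 in edgeR's quasi-likelihood test. RNY5 held 0.751, 0.762 and 0.810 CPM in GFP and 0.549, 0.688 and 0.532 CPM in lamin B2 (−0.39 ± 0.16, adjusted p of 0.862). RNY4 and RNY1 had −0.25 and −0.02 (−0.13 and 0.08 with total counts), and their groups overlapped. The U6 window deposited as RNU6-1;RNU6-9, on chromosome 19 from 893334 to 893740, held 1.06, 1.06 and 0.862 CPM in GFP and 0.606, 0.744 and 0.716 CPM in lamin B2 (−0.52 ± 0.15, adjusted p of 0.815). U6 genes make the spliceosomal RNA that forms part of the catalytic centre, and the median of the 9 was −0.08 (0.02 with total counts).

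Classes made by RNA polymerase II had higher medians than Pol III genes as a whole under both scalings. The Pol III median was −0.09 under TMM scaling and 0.02 with total counts. Only the distance from 0 changed order: these classes lay closer to 0 under TMM scaling and farther from 0 with total counts. The spliceosomal RNAs other than U6 had a median of −0.03 over 28 windows (0.08 with total counts), C/D box snoRNAs, which guide 2′-O-methylation, −0.001 over 202 (0.10), and H/ACA box snoRNAs, which guide pseudouridylation, −0.02 over 151 (0.08). MicroRNA windows had a median of −0.003 over 2764 (0.11 with total counts). The difference between these classes and Pol III genes was not tested. Among single genes, RNU11 of the minor spliceosome had −0.19 ± 0.10, and the nuclear lncRNAs MALAT1 and NEAT1 had −0.08 ± 0.06 and −0.01 ± 0.07, which became 0.03 and 0.09 with total counts.

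**Figure D4:**
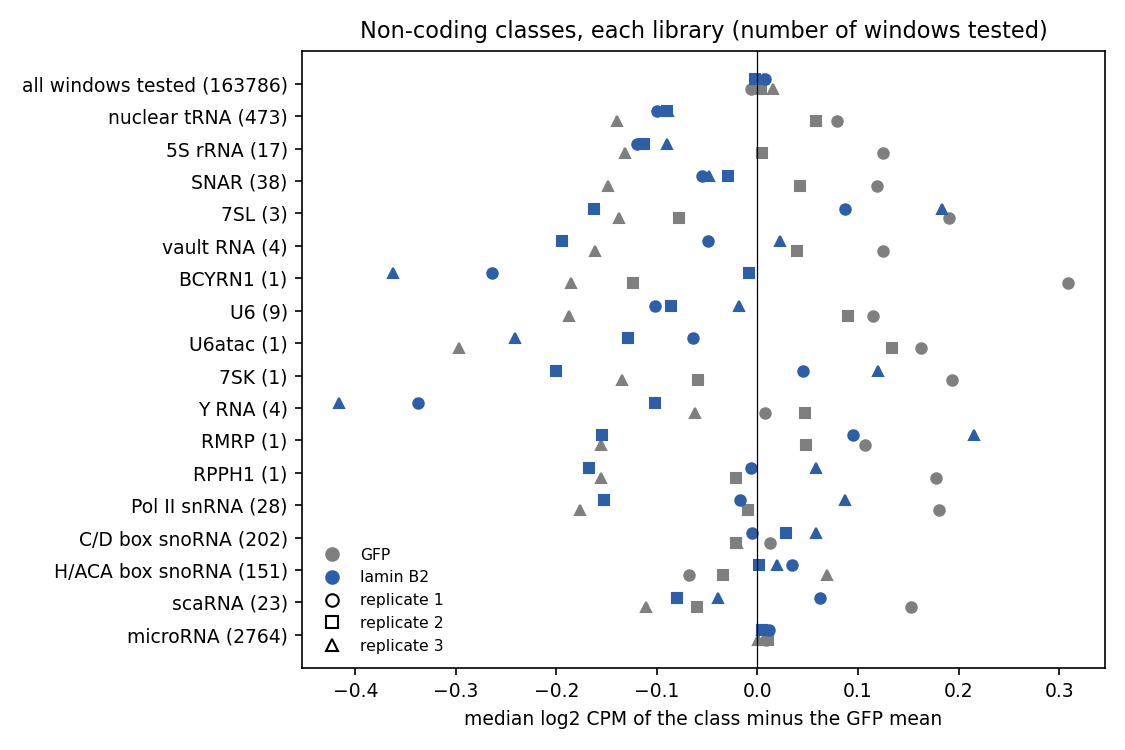
Median log2 CPM of each class of non-coding features minus the GFP mean (horizontal axis), with a point per GFP and lamin B2 library and the number of windows tested in brackets. GFP replicate 3 (grey triangle) lies to the left in most Pol III classes, and the tRNA medians of lamin B2 sit between those of GFP replicates 2 and 3.

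The windows were also split into 5 equal groups by their count density in the lamin A and lamin B1 libraries, which take no part in the contrast. From the lowest to the highest density the median log2 fold change was 0.03, 0.02, 0.01, 0.001 and −0.04, and with total counts 0.14, 0.13, 0.12, 0.11 and 0.07. The densest group held 411 of the 473 tRNA windows and 483 of the 553 Pol III windows. GFP libraries differed among themselves along the same axis: in the densest group their medians relative to the GFP mean were 0.11, 0.02 and −0.13, and those of lamin B2 were −0.02, −0.08 and −0.003. The lamin B2 medians thus lay within the range of the GFP libraries.

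**Figure D5:**
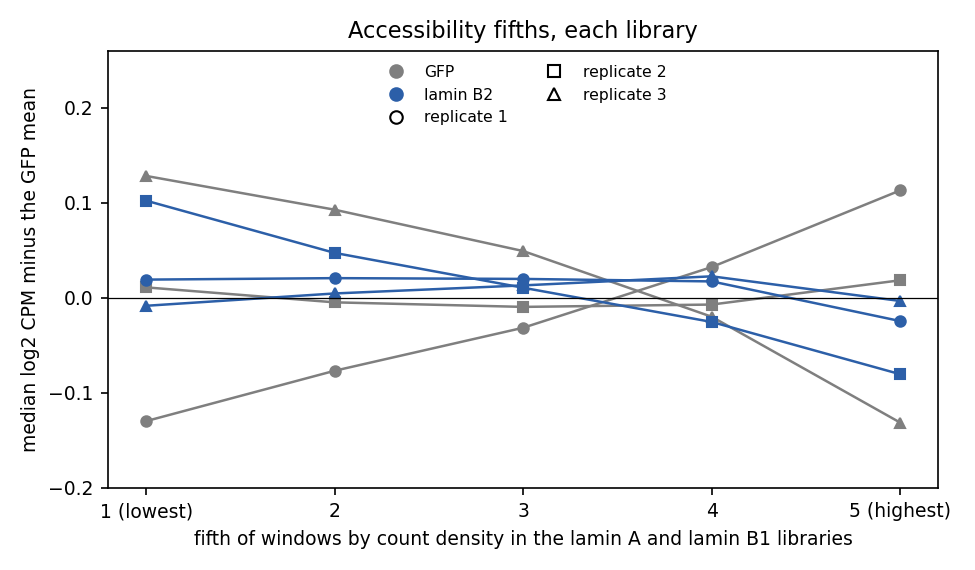
Median log2 CPM minus the GFP mean for 5 equal groups of windows by count density, from the lowest to the highest, with a line per library. GFP replicates 1 and 3 tilt in opposite directions, and the lamin B2 lines lie between them in the densest group.

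Chromosomes differed little. The median over windows of the gene-dense chromosomes 16, 17, 19, 20 and 22 was −0.02, with 15632 of 27556 lower (0.09 with total counts, 7470 lower). That of the gene-poor chromosomes 4, 13 and 18 was 0.02, with 7098 of 15503 lower (0.13 with total counts, 3313 lower), and chromosome 19 had −0.04 (0.07). Low medians were not limited to the gene-dense group. Outside both groups, chromosome X had −0.03 with 2912 of 4788 lower, and chromosome 21 had −0.02 with 1749 of 2867 lower. With total counts their medians were 0.07 and 0.09. Within the gene-dense group, chromosome 22 had −0.01. These differences are small beside the spread of single windows, whose fold changes ran from −0.40 to 0.41 between the 5th and 95th percentiles.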

How the data were processed

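Counts were used as the authors deposited them: whole-number ATAC and small RNA counts, 1 column per library, which the column names tie to single samples. The ATAC table held 1231278 windows: each feature extended by 125 bp on both sides, and flanks that start 350 bp outside that window. Per the submitters' processing notes the build is GRCh38. The aligner, the counting of reads with several matches, duplicate removal and any shift of ATAC reads are not given in the sources used here. All 12 libraries of an assay entered 1 model in edgeR 4.0.16 (R 4.3.3), each group having its own mean. Windows were first filtered with filterByExpr and scaled by trimmed mean of M-values (TMM). Tests were robust quasi-likelihood tests with Benjamini-Hochberg adjustment over all features tested, and calls are at an adjusted p under 0.05. Standard errors come from the fitted weights, and the tests from the deviance, so for steep folds the 2 can differ. Fold changes used a prior count of 2. CPM are counts over TMM-scaled library sizes, with no prior count. Windows were set against flanks in limma 3.58.1, and DESeq2 1.42.0 served as an alternative. Class levels per library are medians of log2(CPM + 0.05).

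Windows named are those called, those over lamin genes, a fixed list of Pol III and other non-coding genes, outside LMNB2 the 8 highest and 8 lowest fold changes among windows with an unadjusted p under 0.001, groups apart and at least median CPM, the 3 highest and 3 lowest tRNA windows at an unadjusted p under 0.05, and outside LMNB2 the 3 flank regions of each size that rose and fell most. Of the fixed list, 35 names were tested, 8 higher and 27 lower, and none was called. The members and lists were chosen with earlier results of these data known. The test, tried on simulated data with known changes, recovered 94% of feature windows changed 2-fold and 38% of those changed 1.5-fold. The changes were planted only in windows above a count minimum, and the simulated spread depended only on the mean count. Recovery in the real data may therefore be lower.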

Additional observations from a re-analysis of the deposited data

Results flagged for a closer look

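Signal appeared over a lamin gene in ATAC libraries that take no part in the comparison and do not overexpress that gene, above the highest GFP library. In lamin B1 replicate 3 the windows over LMNB2 held 11.7 CPM on lnc-TIMM13-2 (highest GFP library 4.41 CPM), 116 CPM on NONHSAG024437.2 (39.6 CPM) and 19.5 CPM on lnc-TIMM13-3 (5.74 CPM). The 3 intervals of MIR7108 held 18.6, 20.01 and 19.9 CPM there, against at most 5.24, 5.58 and 5.54 CPM in GFP. In lamin A replicate 2 the windows on LMNB1-DT held 43.5 and 36.9 CPM, against at most 19.8 and 12.5 CPM in GFP. The libraries that overexpress the gene held at least 3554 CPM on these LMNB2 windows and at least 8697 CPM on these LMNB1-DT windows. The source of the signal was not tested.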

How the results depend on the processing

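The count of 4 feature windows became 116 with DESeq2, 67 with only the 6 libraries compared and 99 with total counts, and ranged from 4 to 13 when 1 library was left out. It was 4 under the other scalings, filters and thresholds tried. The 100 sets of 500 bp flanks became 1285 with total counts and 81 to 94 without 1 of the 6 libraries compared, the only ones left out in turn for flanks. The 117 sets of 5 kb flanks became 187 with only the 6 libraries compared, 54325 with total counts and 75 to 169 without 1 library. The 62 sets of 50 kb flanks became 457 with DESeq2, 306 with only the 6 libraries compared, 80268 with total counts and 36 to 554 without 1 library. The 10 windows that differed from their 5 kb flanks became 2 with 500 bp flanks and 5 to 12 without 1 library. Total counts moved the median of all sets by 0.32, 0.32 and −0.13 for the 3 flank sizes, and the other causes were not tested. The mitochondrial difference ran from −20.4 to −16.6 points without 1 library.

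Replicate numbers did not pair the libraries: deviations of same-numbered libraries correlated at 0.04, 0.04 and −0.09, and only number 2 correlated best with its own. With the replicate number as a block, 389 sets of 50 kb flanks passed in place of 62, and the counts of the other comparisons stayed within 1.5 times.

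Of 1300 alternative values for 78 named windows and flank sets, 1144 kept direction and side of the threshold, 98 were no longer called, 39 were newly called and 19 changed direction, over 8 windows that never passed. With total counts the log2 fold change of MALAT1 was 0.031, of NEAT1 0.0938, of RPPH1 0.0644, of RN7SK 0.0939 and of RNY1 0.0827. Without 1 library it ran from −0.0905 to 0.0742 for NEAT1, −0.117 to 0.053 for RPPH1, −0.0247 to 0.188 for RN7SL2, −0.131 to 0.104 for tRNA-SeC-TCA-1-1, −0.0786 to 0.0921 for RN7SK, −0.133 to 0.184 for RNY1 and −0.0284 to 0.154 for RMRP.

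In simulated data of this depth the test recovered 38% of feature windows changed 1.5-fold, all above a count minimum. A window that did not pass is therefore not shown to be unchanged.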
